A study of Saccharomyces cerevisiae with 15 samples.

Results

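The 10 genes described here encode the phosphate transporters, phosphatases and regulators of the budding yeast Saccharomyces cerevisiae listed by name: PHO84, PHO89, PHO90, GIT1, PHO5, PHO8, PHO81, SPL2, PHO4 and PHO80. They are 10 of the 5656 genes measured on 15 Affymetrix YG-S98 arrays, and each is read by 1 probe set. They were chosen by pathway and selected on their levels in the Pdr1-Cyc8, Pdr1-Sin3 and empty vector groups, with the opposite behaviour of the 2 fusions already in view, so the levels of these genes in those groups and the differences between them are a description without a test. Their levels in the remaining groups were known at the choice as well. Every level below is log2(signal + 16) after quantile normalisation, a log2 scale on which a difference of 1 is a doubling of signal + 16.

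The arrays form 5 groups of 3 biological replicates. They are yeast expressing a Pdr1-Cyc8 fusion protein, yeast expressing a Pdr1-Sin3 fusion protein, yeast deleted for the endogenous PDR1 gene that express the Pdr1-Cyc8 fusion, yeast with the PDR1 deletion, and yeast carrying an empty vector. All cultures were in logarithmic growth at 30 °C in synthetic dextrose medium. Pdr1 is a transcription factor that activates genes of pleiotropic drug resistance, and the study used the fusions as dominant repressors of these genes. Cyc8 works with Tup1 and Sin3 with the histone deacetylase Rpd3 in corepressor complexes. The strain background, the part of each protein in a fusion, the promoter that drives it, whether a group came from 1 clone and whether the deletion strain carried a vector are among the facts not given in the sources used. The Pdr1-Cyc8 and Pdr1-Sin3 groups are not labelled as deleted for PDR1 and are described as carrying it.

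Yeast cells sense phosphate through the PHO pathway. When phosphate is plentiful, the cyclin Pho80 and its kinase Pho85 phosphorylate the activator Pho4, which is then kept out of the nucleus. When phosphate is scarce, the inhibitor Pho81 blocks the kinase, and Pho4 together with Pho2 switches on transporters, secreted acid phosphatases and the enzymes that make polyphosphate. PHO84 and PHO5 are the classic readouts of this switch.

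CYC8 and SIN3 followed the labels of the fusions. CYC8 read 12.05 to 12.61 in cells with Pdr1-Cyc8 and 10.99 to 11.97 where the deletion carried it, against 8.52 to 9.27 on the other 9 arrays. SIN3 read 11.31 to 11.58 with Pdr1-Sin3, against 8.08 to 8.75 on the other 12 arrays. PDR1 read 6.79 to 7.21 with Pdr1-Cyc8 in the deletion and 4.27 to 5.05 in the deletion alone, against 8.93 to 9.25 with the empty vector. It did not stand above the empty vector in the other fusion groups, with Pdr1-Cyc8 at 8.93 to 9.17 and Pdr1-Sin3 at 8.40 to 8.81, and which part of PDR1 its probe set reads is not known here. The arrays also fell into 2 sets by their spike-in controls. The BioC probe set minus the BioB probe set was -0.66 to -0.21 on the 6 arrays of Pdr1-Sin3 and of Pdr1-Cyc8 in the deletion, against 1.06 to 1.38 on the 9 arrays of Pdr1-Cyc8, the deletion and the empty vector. No group spans both sets. In a comparison of groups from different sets, the array set and the group therefore cannot be told apart. Comparisons within a set are Pdr1-Cyc8 against empty vector, deletion against empty vector, and Pdr1-Cyc8 in the deletion against Pdr1-Sin3.

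PHO84, the main high-affinity phosphate transporter, had the widest range of group means among the 10 genes. It read 6.80, 9.39 and 8.23 with Pdr1-Cyc8 and 13.05, 13.03 and 13.24 with Pdr1-Sin3, against 12.83, 10.23 and 12.37 with the empty vector. It read 11.76, 11.38 and 11.67 with Pdr1-Cyc8 in the deletion, against 11.13, 9.40 and 12.16 in the deletion. The 3 Pdr1-Cyc8 arrays lay below all other arrays, the highest of them just under deletion replicate 2, and the 3 Pdr1-Sin3 arrays lay above all others. The remaining groups overlapped. In deposited signal the Pdr1-Cyc8 arrays stood at 102.2, 651.5 and 269.9, the Pdr1-Sin3 arrays at 9034.3, 9153.1 and 10294, and the empty vector arrays at 7856.9, 1162.6 and 5339.3.

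The PHO84 mean was 8.14 ± 1.30 with Pdr1-Cyc8 and 13.11 ± 0.11 with Pdr1-Sin3, against 11.81 ± 1.39 with the empty vector (SD, n = 3 each). The difference from the empty vector was -3.67 for Pdr1-Cyc8, a 12.8-fold lower value of signal + 16, and 1.29 for Pdr1-Sin3. Pdr1-Cyc8 minus Pdr1-Sin3 was -4.97. Single arrays moved these values. The Pdr1-Cyc8 difference from the empty vector was -3.02 without Pdr1-Cyc8 replicate 1 and -4.46 without empty vector replicate 2, and the Pdr1-Sin3 difference was 0.50 without empty vector replicate 2.

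PHO89, a sodium-coupled high-affinity phosphate transporter, followed another order. It read 6.48, 6.63 and 7.39 with Pdr1-Cyc8 and 9.40, 8.9998 and 8.86 with Pdr1-Sin3, against 7.65, 6.93 and 6.38 with the empty vector. Its readings were 8.34, 7.53 and 8.63 with Pdr1-Cyc8 in the deletion, against 6.90, 6.33 and 6.71 in the deletion. Pdr1-Cyc8 overlapped the empty vector, with a difference of -0.15, and Pdr1-Sin3 stood above it by 2.10. PHO89 was the gene whose levels came closest to following the array sets, with 7.53 to 9.40 in the set with Pdr1-Sin3 and 6.33 to 7.65 in the set with the empty vector.

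PHO90, a low-affinity phosphate transporter, was the transporter among the 10 genes that stood lower with Pdr1-Sin3. It read 10.22, 10.04 and 10.53 with Pdr1-Cyc8 and 8.71, 9.33 and 9.81 with Pdr1-Sin3, against 10.66, 10.64 and 9.94 with the empty vector. With Pdr1-Cyc8 in the deletion it read 10.62, 10.58 and 9.74, against 10.10, 9.44 and 10.40 in the deletion. The difference from the empty vector was -0.15 for Pdr1-Cyc8, whose arrays overlapped the empty vector, and -1.13 for Pdr1-Sin3, whose arrays did not. Among transporter genes outside the 10, PHO87 averaged 8.28 with Pdr1-Sin3 and 9.11 with the empty vector, a difference that did not pass in limma. PHO91 averaged 9.02 with Pdr1-Sin3 and 8.92 with the empty vector.

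GIT1, a transporter of glycerophosphoinositol that is also turned on in phosphate starvation, was dim and scattered. It read 8.95, 5.93 and 4.52 with Pdr1-Cyc8 and 7.35, 7.19 and 6.75 with Pdr1-Sin3, against 5.31, 5.06 and 6.93 with the empty vector. It read 5.87, 5.69 and 6.27 with Pdr1-Cyc8 in the deletion, against 6.84, 5.88 and 4.97 in the deletion. All groups overlapped the empty vector. Its difference for Pdr1-Cyc8 was 0.70 with all arrays and -0.54 without replicate 1, so 1 array set its sign. It was 1.33 for Pdr1-Sin3.

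PHO5, the secreted repressible acid phosphatase, had the same order of group means as PHO84, from Pdr1-Cyc8 at the low end through the deletion, Pdr1-Cyc8 in the deletion and the empty vector to Pdr1-Sin3. It read 7.37, 8.02 and 7.89 with Pdr1-Cyc8 and 11.82, 11.29 and 11.52 with Pdr1-Sin3, against 10.88, 8.57 and 10.12 with the empty vector. It read 9.89, 9.60 and 9.92 with Pdr1-Cyc8 in the deletion, against 9.25, 8.44 and 9.45 in the deletion. As with PHO84, the Pdr1-Cyc8 arrays were the lowest of the 15 and the Pdr1-Sin3 arrays the highest. The difference from the empty vector was -2.10 for Pdr1-Cyc8 and 1.68 for Pdr1-Sin3, and the second became 1.04 without empty vector replicate 2.

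PHO8, the vacuolar alkaline phosphatase, varied little. It read 8.75, 8.08 and 8.05 with Pdr1-Cyc8 and 9.14, 8.62 and 8.76 with Pdr1-Sin3, against 8.26, 7.81 and 8.47 with the empty vector. It read 8.20, 7.90 and 8.01 with Pdr1-Cyc8 in the deletion, against 8.84, 8.74 and 8.03 in the deletion. Pdr1-Cyc8 overlapped the empty vector, with a difference of 0.11. Pdr1-Sin3 lay above it by 0.66, with a gap of less than the spread within either group.

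Among the regulators, SPL2 had the largest differences. Spl2 is a small protein that restrains low-affinity phosphate uptake when phosphate is scarce, and its gene is itself a target of Pho4. SPL2 read 5.37, 5.82 and 5.36 with Pdr1-Cyc8 and 9.20, 9.15 and 9.47 with Pdr1-Sin3, against 8.53, 5.71 and 7.41 with the empty vector. It read 6.85, 7.32 and 7.14 with Pdr1-Cyc8 in the deletion, against 6.88, 6.51 and 7.11 in the deletion. Pdr1-Cyc8 overlapped the empty vector through empty vector replicate 2, and Pdr1-Sin3 lay above all other arrays. The difference from the empty vector was -1.70 for Pdr1-Cyc8, or -1.04 without empty vector replicate 1. For Pdr1-Sin3 it was 2.06, or 1.31 without empty vector replicate 2.

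PHO81, which encodes the kinase inhibitor and is a Pho4 target as well, moved over a narrower range. It read 8.69, 8.68 and 8.60 with Pdr1-Cyc8 and 9.82, 9.73 and 9.82 with Pdr1-Sin3, against 9.70, 8.66 and 9.26 with the empty vector. It read 8.71, 8.71 and 9.09 with Pdr1-Cyc8 in the deletion, against 8.45, 8.84 and 9.51 in the deletion. Both fusions on the PDR1 background had tight replicates, at 8.66 ± 0.05 with Pdr1-Cyc8 and 9.79 ± 0.06 with Pdr1-Sin3, beside 9.21 ± 0.53 with the empty vector (SD, n = 3 each). The difference from the empty vector was -0.55 for Pdr1-Cyc8, or -0.30 without empty vector replicate 1. It was 0.58 for Pdr1-Sin3, or 0.31 without empty vector replicate 2.

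The genes for the activator and the cyclin moved over narrow ranges. PHO4 read 8.28, 8.45 and 7.78 with Pdr1-Cyc8 and 7.93, 7.79 and 7.86 with Pdr1-Sin3, against 8.28, 8.26 and 8.47 with the empty vector. It read 8.18, 7.96 and 8.14 with Pdr1-Cyc8 in the deletion, against 8.40, 8.27 and 8.43 in the deletion. The largest of its differences from the empty vector was -0.47, for Pdr1-Sin3, opposite in sign to those of PHO84, PHO5 and SPL2 in that group. PHO80 read 7.27, 7.25 and 7.16 with Pdr1-Cyc8 and 7.32, 6.83 and 7.07 with Pdr1-Sin3, against 7.32, 7.10 and 7.39 with the empty vector. It read 6.46, 6.84 and 7.38 with Pdr1-Cyc8 in the deletion, against 6.88, 7.47 and 7.31 in the deletion. All of its groups overlapped the empty vector.

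**Figure D1:**
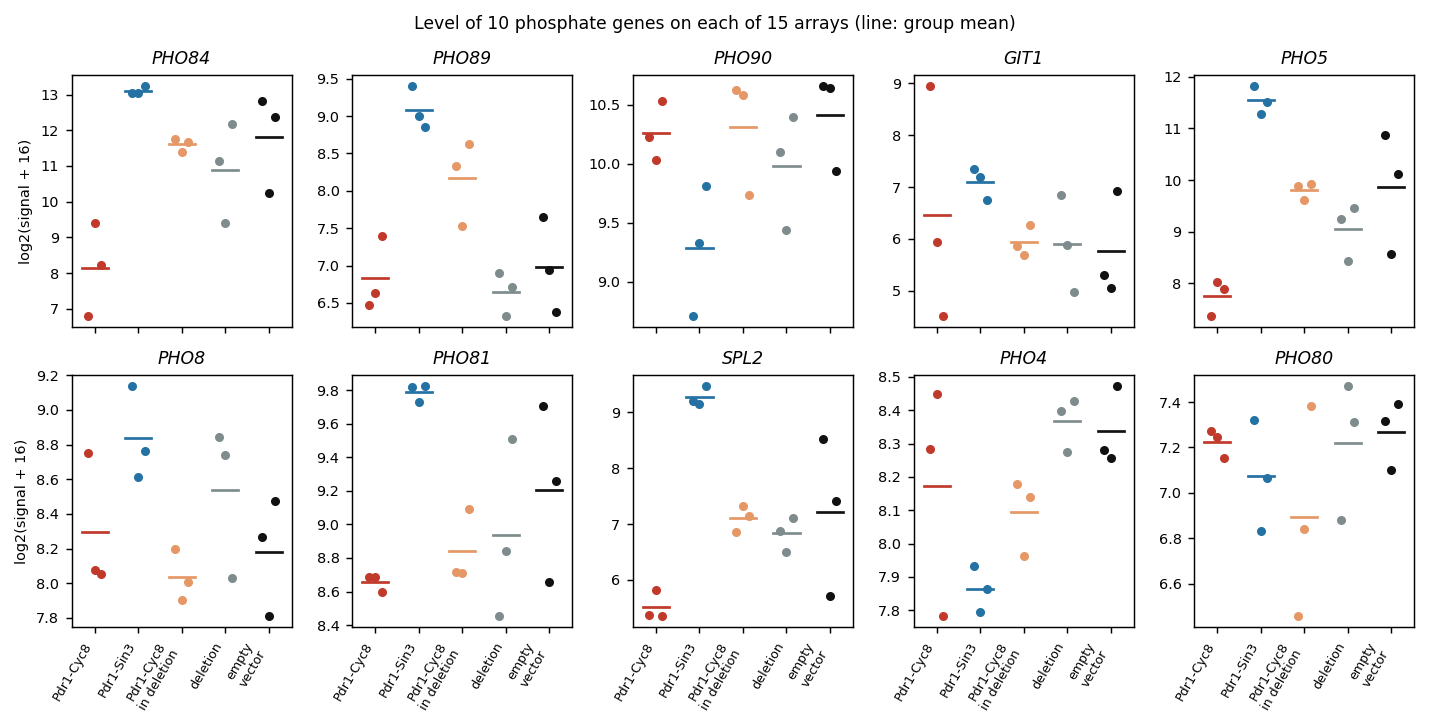
Level of each of the 10 genes, log2(signal + 16), on each of 15 arrays (points) with the group mean (line), 3 arrays a group. For PHO84, PHO5 and SPL2 the Pdr1-Sin3 arrays are the highest, and for PHO84 and PHO5 the Pdr1-Cyc8 arrays are the lowest, while PHO4 and PHO80 have the narrowest ranges of group means.

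As a list, the 10 genes had a median difference of -0.16 for Pdr1-Cyc8 minus empty vector, with 2 above 0 and 8 below. Over all 9275 probe sets the median was -0.03, with 53.3% below 0. For Pdr1-Sin3 minus empty vector the median was 0.98, with 7 above 0 and 3 below, where all probe sets had -0.01, with 51.3% below 0. These comparisons share the empty vector arrays. Pdr1-Cyc8 minus Pdr1-Sin3 had a median of -0.88, which was -1.51 without Pdr1-Cyc8 replicate 1. PHO5 differed by -3.78 in that comparison, SPL2 by -3.76, PHO89 by -2.25 and PHO81 by -1.13, while PHO90 differed by 0.98, PHO4 by 0.31 and PHO80 by 0.15.

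Pdr1-Cyc8 in the deletion and Pdr1-Sin3 lie in the same array set. Between them PHO84 differed by -1.50, PHO5 by -1.74, SPL2 by -2.17, PHO89 by -0.92, PHO81 by -0.95, PHO8 by -0.80 and GIT1 by -1.15. The PHO89 difference was -0.60 without replicate 2 of Pdr1-Cyc8 in the deletion. PHO90 differed by 1.03, with overlapping groups. These values are also a description, since the Pdr1-Sin3 arrays took part in the choice of the genes.

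The effect of the Pdr1-Cyc8 fusion in cells without endogenous PDR1 was not the contrast noted in that choice. It was tested with limma, with Benjamini-Hochberg adjustment over all 9275 probe sets. The 10 genes were chosen with the levels in all groups known, so their p-values and intervals here are not those of an independent test. In this comparison of Pdr1-Cyc8 in the deletion with the deletion, 19.0% of all probe sets had an adjusted p under 0.05. Of the 10 phosphate genes, 1 did: PHO89 rose by 1.52 (SE 0.35, 95% interval 0.78 to 2.27, limma adjusted p = 0.00882), and its 3 readings with Pdr1-Cyc8 in the deletion were above all 3 in the deletion. These groups are in different array sets, so the set and the fusion cannot be told apart. The call was lost, with a difference of 1.46 and an adjusted p of 0.127 in limma, when the 3 arrays with the lowest ribosome assembly levels were left out, which leaves 1 deletion array.

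PHO84, PHO5 and SPL2 did not pass this test, whose intervals use a spread pooled over all 5 groups. The SD of SPL2 was 0.24 with Pdr1-Cyc8 in the deletion and 0.30 in the deletion, against 1.42 with the empty vector. That of PHO5 was 0.17 and 0.53, against 1.18. The PHO84 difference was 0.71 (95% interval -0.82 to 2.23, limma adjusted p = 0.536), and it was -0.04 without deletion replicate 2 and 1.34 without deletion replicate 3. PHO5 differed by 0.76 (95% interval -0.17 to 1.68, limma adjusted p = 0.242) without overlap of the groups, or by 0.46 without deletion replicate 2. For SPL2 the difference was 0.27 (95% interval -0.73 to 1.27). Beside these values stand the -3.67 for PHO84, -2.10 for PHO5 and -1.70 for SPL2 of Pdr1-Cyc8 minus empty vector, the comparison without the deletion. Whether the fusion's effect differs between the PDR1 backgrounds was not tested for these genes, because the values with PDR1 took part in their choice. PHO8 differed by -0.50, PHO4 by -0.27, PHO80 by -0.33, PHO90 by 0.33, PHO81 by -0.09 and GIT1 by 0.05, and none of these passed.

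Comparisons with the empty vector are given for the 10 genes as values without a test, since the empty vector arrays took part in their choice. Between the deletion and the empty vector, PHO84 differed by -0.92, PHO5 by -0.81 and SPL2 by -0.38, with overlapping groups in each. Single arrays moved these differences: PHO84 stood at -0.17 without deletion replicate 2, -1.55 without deletion replicate 3, -0.41 without empty vector replicate 1 and -1.71 without empty vector replicate 2. PHO90 differed by -0.44, PHO8 by 0.35, PHO89 by -0.34, PHO81 by -0.27, GIT1 by 0.13, PHO80 by -0.05 and PHO4 by 0.03, and the groups overlapped in each of these too.

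Between Pdr1-Cyc8 in the deletion and the empty vector, PHO89 had the largest difference, 1.18, with overlapping groups. PHO84 differed by -0.21, PHO5 by -0.05 and SPL2 by -0.11, with all 3 readings of Pdr1-Cyc8 in the deletion inside the range of the empty vector readings for each of these genes. PHO80 differed by -0.38, PHO81 by -0.37, PHO4 by -0.24, GIT1 by 0.18, PHO8 by -0.15 and PHO90 by -0.10.

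**Figure D2:**
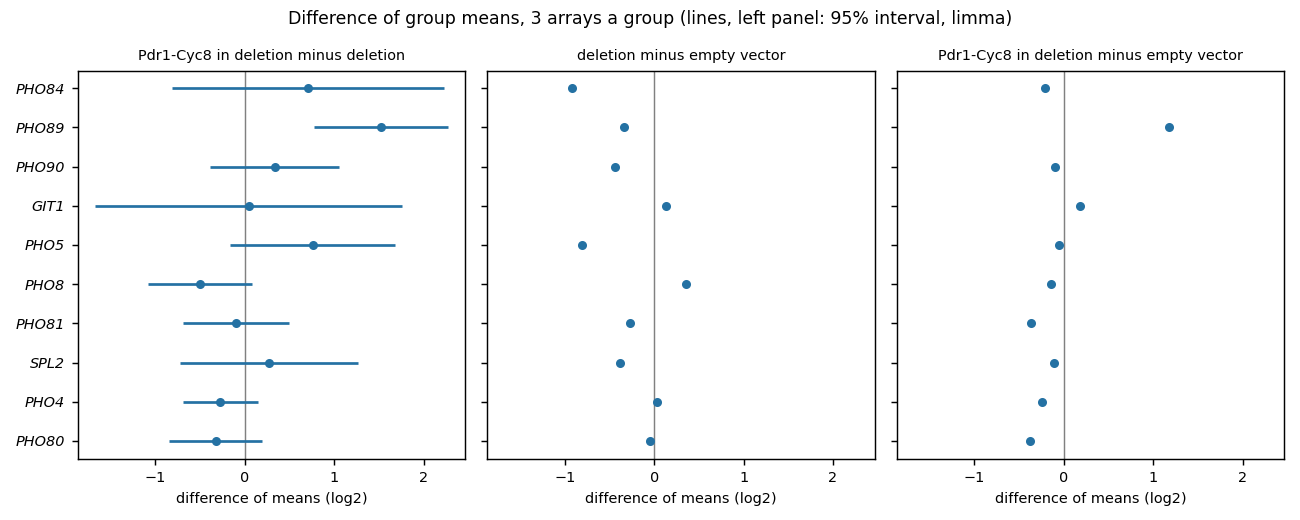
Difference of group means on the log2 scale (points) for the 10 genes in 3 comparisons, 3 arrays a group, with the 95% interval (lines) in the tested comparison on the left. PHO89 has an interval above 0 for Pdr1-Cyc8 in the deletion minus deletion, and the other 9 intervals include 0. The genes were chosen with the levels in all groups known, so these intervals are not those of an independent test. The groups on the left also come from different array sets.

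Pooled over the groups, replicates differed from each other more for PHO84, PHO5, SPL2 and GIT1 than for most probe sets, but not in every group. The SD within groups, pooled over the 5 groups, was 1.06 for PHO84, which is larger than that of 99.6% of probe sets, 1.20 for GIT1 (99.8%), 0.67 for SPL2 (96.1%) and 0.62 for PHO5 (93.8%), where the median probe set had 0.35. PHO4 lay at the other end with 0.18, above 5.32% of probe sets. In the empty vector group alone, the SD was 1.42 for SPL2, 1.39 for PHO84 and 1.18 for PHO5, against a median of 0.25 over all probe sets. Empty vector replicate 2 read low in all 3 genes.

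These deviations ran together. Over the 15 arrays, the deviation from the group mean of PHO5 had a Pearson r of 0.86 with that of PHO84, SPL2 had 0.73 and PHO81 had 0.59. PHO89 had 0.29, PHO90 0.17, PHO4 0.31, PHO80 -0.01, PHO8 -0.25 and GIT1 -0.30. All genes on an array share its RNA sample, so these values describe the arrays and carry no p. The value for SPL2 leans on the empty vector arrays, where its SD was 1.42. In empty vector replicate 2, PHO84 lay -1.58 from its group mean, SPL2 -1.51, PHO5 -1.29 and PHO81 -0.55. In deletion replicate 2, PHO84 lay -1.50 from its mean, PHO5 -0.61 and SPL2 -0.32, while deletion replicate 3 lay above the mean in all 3 genes.

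**Figure D3:**
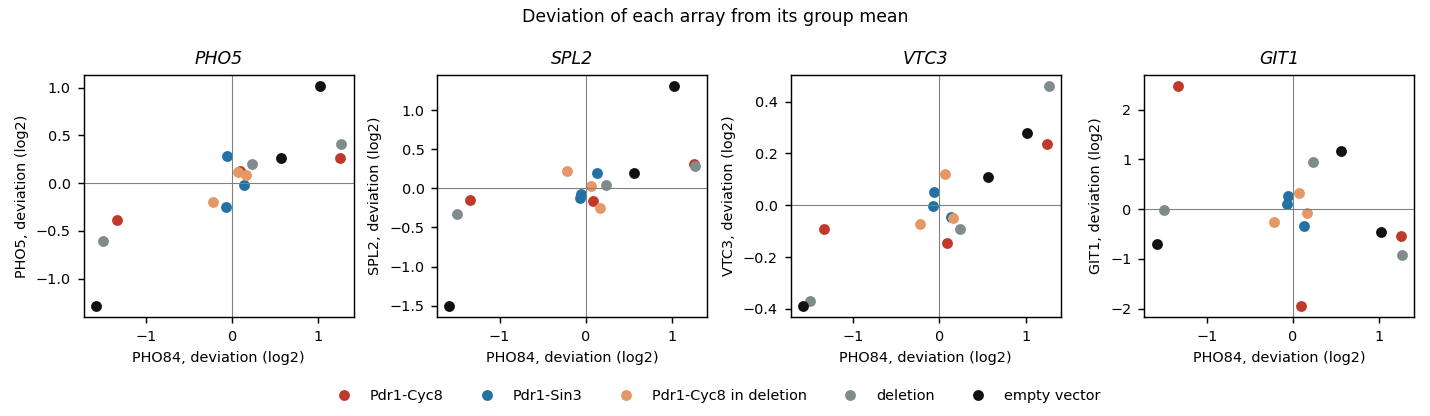
Deviation of each array from its group mean (log2) for PHO5, SPL2, VTC3 and GIT1 on the vertical axes against that of PHO84 on the horizontal axes, 15 arrays coloured by group. PHO5, SPL2 and VTC3 rise along PHO84 (Pearson r 0.86, 0.73 and 0.88), and GIT1 does not (r -0.30).

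Genes of 2 other programmes were read beside PHO84. The mean level of 40 ribosome assembly genes was 8.18, 8.93 and 9.03 with Pdr1-Cyc8 and 8.80, 8.78 and 8.61 with Pdr1-Sin3, against 9.63, 9.58 and 9.14 with the empty vector. It stood at 9.44, 9.46 and 9.36 with Pdr1-Cyc8 in the deletion, against 7.98, 7.74 and 9.30 in the deletion. In the deletion the 3 arrays had the same order for these genes and for PHO84, and among the Pdr1-Cyc8 arrays replicate 1 was lowest in both lists of values. In the empty vector group the orders differed, since replicate 2 read 9.58 for ribosome assembly and was lowest for PHO84.

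The mean of 30 environmental stress genes was 9.49, 9.69 and 9.05 with Pdr1-Cyc8 and 9.88, 10.13 and 9.96 with Pdr1-Sin3, against 8.35, 8.89 and 8.43 with the empty vector. It stood at 8.96, 9.17 and 9.20 with Pdr1-Cyc8 in the deletion, against 9.27, 9.48 and 9.10 in the deletion. Both fusions in PDR1 cells were above the empty vector in stress genes, while PHO84 lay below it with Pdr1-Cyc8 and above it with Pdr1-Sin3. Within the deletion and within the empty vector, the 3 arrays had opposite orders for stress genes and PHO84, and empty vector replicate 2 was highest in stress genes and lowest in PHO84. Among the Pdr1-Cyc8 arrays replicate 2 was highest in both. The part of growth and stress in the phosphate gene levels was not tested.

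**Figure D4:**
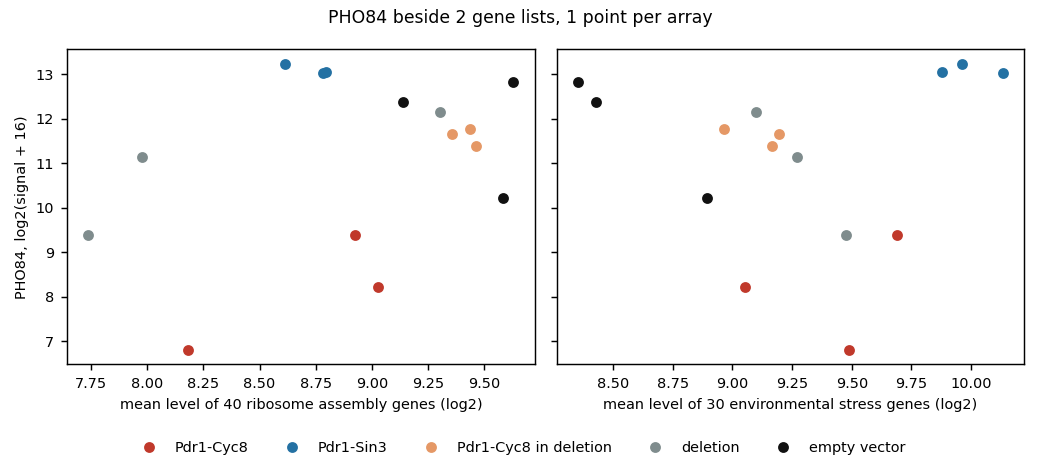
PHO84 level, log2(signal + 16), against the mean level of 40 ribosome assembly genes (left) and of 30 environmental stress genes (right), with 1 point per array coloured by group. The Pdr1-Sin3 and Pdr1-Cyc8 arrays lie at the top and bottom of the PHO84 axis. Their ribosome assembly levels overlap, with 8.61 to 8.80 for Pdr1-Sin3 and 8.18 to 9.03 for Pdr1-Cyc8. Their stress gene levels do not, with 9.88 to 10.13 for Pdr1-Sin3 and 9.05 to 9.69 for Pdr1-Cyc8. The part of growth and stress in the PHO84 level was not tested.

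The rest of the pathway was read from a list of 29 further phosphate genes, of which 26 were measured. They were not in the choice of the 10 genes, so they were tested in every comparison, although that choice was made with results of these arrays known. The probe set of PHO11 and PHO12, both acid phosphatases close to PHO5, is listed for both genes and is not analysed here. For Pdr1-Cyc8 minus Pdr1-Sin3, 6 of the 26 were lower and 0 higher, beside 2.72% of all probe sets called. These groups come from different array sets, so for all 6 the set and the fusion cannot be told apart. Their median difference was -0.20, against -0.005 over all probe sets. Among the 6 were all members of the vacuolar transporter chaperone complex on the list except VTC5. Its subunit Vtc4 makes polyphosphate and pulls it into the vacuole.

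VTC1, a small membrane subunit, read 10.93, 11.17 and 11.15 with Pdr1-Cyc8, against 13.03, 12.89 and 12.89 with Pdr1-Sin3, a difference of -1.85 (limma adjusted p = 0.000575). VTC3, a regulatory subunit, read 8.13, 8.46 and 8.08 with Pdr1-Cyc8, against 10.16, 10.10 and 10.06 with Pdr1-Sin3, a difference of -1.88 (limma adjusted p = 0.000546). VTC2, the other such subunit, differed by -1.24 (limma adjusted p = 0.00815) and VTC4 by -1.41 (limma adjusted p = 0.0187). In each of these genes the groups did not overlap. The VTC4 call was lost on leaving out Pdr1-Cyc8 replicate 1 or any 1 Pdr1-Sin3 replicate, with adjusted p from 0.0503 to 0.0744 in limma.

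PHM6, a small protein of unknown function whose gene is induced by low phosphate, read 4.91, 5.28 and 4.62 with Pdr1-Cyc8, against 7.86, 7.54 and 7.74 with Pdr1-Sin3. It differed by -2.78 (limma adjusted p = 0.00144). PHM6 was dim with Pdr1-Cyc8, and the size of its difference ran from -3.70 to -1.71 over the alternatives. PHO86, an endoplasmic reticulum protein needed for Pho84 to reach the cell surface, differed by -1.07 (limma adjusted p = 0.0217). That call was lost on leaving out Pdr1-Cyc8 replicate 1 or 2 or any 1 Pdr1-Sin3 replicate, with adjusted p from 0.0521 to 0.102 in limma.

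Against the empty vector, with Pdr1-Sin3, 2 of the 26 rose and 0 fell, beside 3.71% of all probe sets called, and the median difference was 0.20. VTC1 rose by 1.29 (limma adjusted p = 0.00713), with its empty vector arrays at 12.01, 11.07 and 11.85. VTC3 rose by 0.94 (limma adjusted p = 0.0375), a call lost on leaving out any 1 Pdr1-Sin3 replicate or empty vector replicate 2 or 3, with adjusted p from 0.0698 to 0.168 in limma. PHM6 differed by 1.36, VTC2 by 0.62 and VTC4 by 0.65 without passing. All readings of VTC1 in the set with Pdr1-Sin3, 12.11 to 13.03, were above those in the other set, 10.93 to 12.01.

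With Pdr1-Cyc8, 0 of the 26 passed in limma against the empty vector, where 0.712% of all probe sets were called. An unadjusted p under 0.05 in limma was found for 5 of the 26, beside 909 of all 9275 probe sets. Their median difference was -0.08, against -0.03 over all probe sets. Those 5 were VTC1, VTC2, VTC3, VTC4 and PHM6, at -0.56, -0.62, -0.94, -0.76 and -1.42. The lowest adjusted p among them was 0.106 in limma, for VTC3. Both groups of this comparison are in the same array set, and in VTC2, VTC3, VTC4 and PHM6 they did not overlap. These genes are listed for their p in the same comparison, so the lack of overlap is no further support. Its share over all probe sets was not counted.

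For Pdr1-Cyc8 in the deletion minus the deletion, 3 of the 26 rose and 1 fell, with a median difference of 0.10. As a share this is below the 19.0% of all probe sets called there. PHO3, a constitutive acid phosphatase that lies next to PHO5, read 12.35, 12.52 and 12.67 with Pdr1-Cyc8 in the deletion, against 9.69, 10.02 and 11.39 in the deletion, and rose by 2.15 (limma adjusted p = 0.00462). VTC1 rose by 1.19 (limma adjusted p = 0.00354). PHM8, a phosphatase that acts on nucleotides and lysophosphatidic acid, read 6.98, 7.62 and 7.35 with Pdr1-Cyc8 in the deletion, against 9.97, 10.14 and 8.01 in the deletion, and fell by 2.06 (limma adjusted p = 0.00777).

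PHO2, the partner of Pho4, rose by 1.30 (limma adjusted p = 0.0213) but was dim, with 6.24 to 7.02 in Pdr1-Cyc8 in the deletion, against 4.91 to 5.601 in the deletion. Its call was lost without replicate 3 of Pdr1-Cyc8 in the deletion (adjusted p = 0.0866 in limma) and without deletion replicate 2 or 3 (adjusted p = 0.0564 and 0.0541 in limma). Deletion replicates 1 and 2 had the lowest ribosome assembly levels, and without them and Pdr1-Cyc8 replicate 1 none of the 4 calls held. In that fit, with 1 deletion array, PHO3 differed by 1.14, PHM8 by -0.70, VTC1 by 0.98 and PHO2 by 1.65. PHO5 and PHO3 are similar in sequence, and cross-hybridisation between their probe sets was not tested.

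The deletion minus the empty vector gave 0 calls in the 26 genes in limma, where 6 had an unadjusted p under 0.05, beside 0.0323% of all probe sets called and 1274 of 9275 with an unadjusted p under 0.05. Against the empty vector, Pdr1-Cyc8 in the deletion gave 1 call, a smaller share than the 8.47% of all probe sets called. It was PHO2, which rose by 1.87 (limma adjusted p = 0.00511). All readings of PHO2 in the set with Pdr1-Sin3, 5.70 to 7.02, were above those in the other set, 4.16 to 5.601. Between Pdr1-Cyc8 in the deletion and Pdr1-Sin3, in the same array set, 1 of the 26 was lower and 0 higher, beside 2.53% of all probe sets called. It was PHM6, which read 5.51, 5.77 and 5.50 with Pdr1-Cyc8 in the deletion, against 7.86, 7.54 and 7.74 with Pdr1-Sin3. Its difference was -2.12 (limma adjusted p = 0.0101), and the call was lost without Pdr1-Sin3 replicate 1 (adjusted p = 0.0588 in limma). The PHM6 difference was -2.55 with a pseudocount of 1 and -1.42 with 64.

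The difference between the fusion's effect in the deletion and its effect with PDR1 was tested for the 26 genes as an interaction, in which 11.5% of all probe sets passed. It passed for 4 of the 26, a share close to that of all probe sets, so the count does not set these genes apart. VTC1 had an interaction of 1.75 (limma adjusted p = 0.00702), VTC2 of 1.10 (limma adjusted p = 0.0365), VTC3 of 1.10 (limma adjusted p = 0.046) and PHM8 of -2.90 (limma adjusted p = 0.0152). The VTC1 and PHM8 calls held on leaving out any 1 array of the 4 groups. The VTC2 call was lost on leaving out any 1 array except deletion replicate 3, Pdr1-Cyc8 replicate 3 and empty vector replicate 2 (adjusted p up to 0.0964 in limma). The VTC3 call was lost on leaving out any 1 array except deletion replicate 3, Pdr1-Cyc8 replicate 2 and empty vector replicate 2 (adjusted p up to 0.115 in limma). None of the 4 held without the 3 arrays that had the lowest ribosome assembly levels, where VTC1 had 1.47, VTC2 0.48, VTC3 0.58 and PHM8 -1.17. The 3 VTC genes had positive effects of 1.19, 0.48 and 0.16 in the deletion, against -0.56, -0.62 and -0.94 with PDR1. Of the 4 groups in this term, only Pdr1-Cyc8 in the deletion is in the second array set, so the set cannot be told apart from the interaction.

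**Figure D5:**
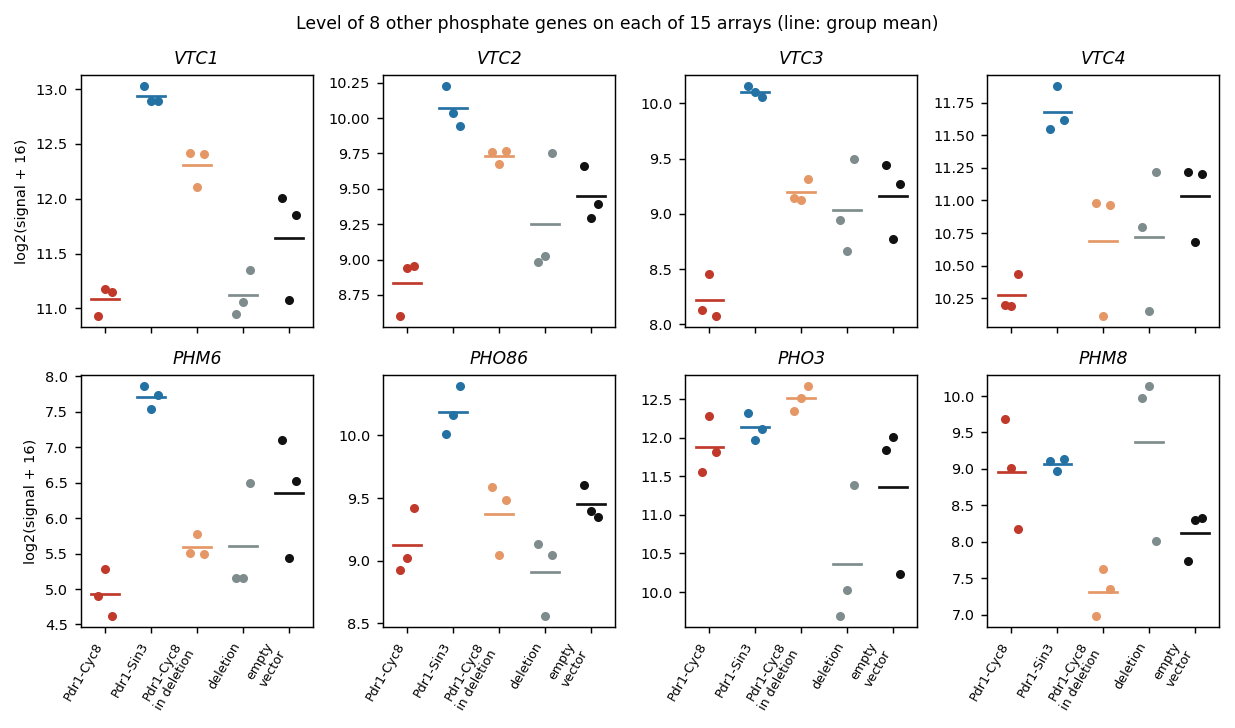
Level, log2(signal + 16), of 8 of the other phosphate genes on each of 15 arrays (points) with the group mean (line), 3 arrays a group. VTC1, VTC2, VTC3, VTC4, PHM6 and PHO86 are highest in the mean with Pdr1-Sin3, PHO3 is lowest in the deletion, and PHM8 is lowest where the deletion carries Pdr1-Cyc8.

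The genes with the profile most like PHO84 over the 15 arrays, among 3907 genes with a mean level of at least 7, were VTC3 (Pearson r 0.94), AGE2 (0.92), VTC2 (0.89), GCD2 (0.84) and VTC4 (0.83). AGE2 encodes an activator of Arf GTPases and GCD2 a subunit of the translation factor eIF2B. For PHO5 they were VTC3 (0.96), VTC2 (0.91), VTC1 (0.90), AGE2 (0.89) and VTC4 (0.87), so 4 of the 5 were the same as for PHO84. For PHO89 they were ERG28 (0.93), RPR1 (0.91), VTC1 (0.91), DIF1 (0.90) and COA1 (0.90), and VTC1 was the 1 phosphate gene among them. The points share the 5 groups and the 2 array sets, and PHO89 and VTC1 both stood high in the set with Pdr1-Sin3.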

How the data were processed

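Total RNA from 15 cultures (10 ug each, per the labels' protocols) was hybridised to Affymetrix YG-S98 arrays. The authors deposited 1 linear intensity per probe set and array. How the software corrected background and scaled the arrays is a step that no label or header describes. A trimmed mean (2% at each end) of the deposited intensities was 500.5 to 500.7 on every array, and total signal was 6839487 to 7739820. Precision is limited by how many arrays there are.

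Of 9335 probe sets, 60 controls were left out. Of the 9275 tested, 6504 matched 1 gene, 328 several and 2443 none, and the brightest probe set stood for its gene. Gene names came from the platform annotation, brought up to date with a reference gene table. The deposited intensities were quantile normalised, converted to log2(signal + 16) and fitted with limma 3.58.1 in R 4.3.3, as 1 fit to 15 arrays with 10 residual and 5.35 prior degrees of freedom. P-values are two-sided, with Benjamini-Hochberg adjustment over the 9275 probe sets and a threshold of 0.05. Intervals are limma's 95% intervals. The procedure was tested on simulated data. For the 10 genes, tests against the empty vector had been planned, and their values are given without a test because those arrays entered the choice of genes. Plots were made in Python 3.11.15 with matplotlib 3.10.9.

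The 10 genes, the lists of other phosphate, ribosome assembly and stress genes, and the alternatives were chosen with earlier results of these data known. Of the other phosphate genes the text names those called, at most 6 per direction and comparison, with VTC1 to VTC4 always, and for PHO84, PHO89 and PHO5 the 5 most like genes by Pearson r. PHO87 and PHO91 are named beside PHO90. Replicates are called biological in the sample titles, which do not say what they share.

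The alternatives were median centring, no normalisation of the deposited intensities, dropping the dimmest 25% of probe sets, pseudocounts of 1 and 64, a robust prior with an intensity trend, array weights, the mean over probe sets, a fit of the groups compared alone, the replicate number as a block, leaving out the 3 arrays with the lowest ribosome assembly levels (Pdr1-Cyc8 replicate 1 and deletion replicates 1 and 2), and leaving out each array in turn. The same alternatives were added for the interaction after its result was seen.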

Additional observations from a re-analysis of the deposited data

Results flagged for a closer look

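For PHO84, PHO5 and SPL2 every Pdr1-Cyc8 array lay below the empty vector mean while every array of Pdr1-Cyc8 in the deletion lay above the deletion mean. The pattern was not particular to them. It held for other phosphate genes too, among them VTC1, VTC2, VTC3 and PHO86, and the reverse held for PHM8. The share of all probe sets with either pattern was not counted. The effect of the fusion in the deletion minus its effect with PDR1 was 4.38 (log2) for PHO84, from effects of 0.71 and -3.67. It was 2.86 for PHO5, from 0.76 and -2.10, and 1.97 for SPL2, from 0.27 and -1.70. The difference was not tested for these genes, since the values with PDR1 took part in their choice.

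Among the other phosphate genes the same difference passed limma's interaction test in 4 of 26, a share close to the 11.5% of all probe sets that passed. It was 1.75 for VTC1 (limma adjusted p = 0.00702), 1.10 for VTC2 (limma adjusted p = 0.0365), 1.10 for VTC3 (limma adjusted p = 0.046) and -2.90 for PHM8 (limma adjusted p = 0.0152). The VTC2 and VTC3 calls were lost on leaving out most single arrays (adjusted p up to 0.0964 and 0.115 in limma), and all 4 were lost without the 3 arrays that had the lowest ribosome assembly levels. In all of these genes the arrays of Pdr1-Cyc8 in the deletion come from another array set than those of the other 3 groups.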

How the results depend on the processing

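Without the 3 arrays that had the lowest ribosome assembly levels, which leaves a lone deletion array whose spread is taken from the other groups, 0 of the 10 genes and 0 of the 26 others were called for Pdr1-Cyc8 in the deletion minus deletion, and 0 of the 26 for the interaction. In the first of these PHO84 then stood at -0.56, PHO90 at -0.079, PHO8 at 0.0064 and SPL2 at -0.0056. For deletion minus empty vector PHO84 stood at 0.35, GIT1 at -0.79, PHO8 at -0.15, PHO81 at 0.30 and PHO80 at 0.043. The median of the 10 genes for Pdr1-Cyc8 minus Pdr1-Sin3 was -1.50, and over the arrays left out singly it was -1.51 to -0.76.

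For Pdr1-Cyc8 in the deletion minus empty vector, which is not read as a test of the 10 genes, the 1 gene past the threshold (PHO89) became 0 with a pseudocount of 1, with the groups compared alone, with the replicate block and without those 3 arrays, and was 0 to 1 over single arrays left out. Among the 26 other genes, deletion minus empty vector gave 1 call with array weights and 0 to 3 over single arrays left out. Pdr1-Cyc8 in the deletion minus empty vector gave 0 without the dimmest probe sets, which removes PHO2, and 1 to 2 over single arrays. Pdr1-Cyc8 minus empty vector gave 0 to 1 over single arrays, the 1 without empty vector replicate 2. Pdr1-Sin3 minus empty vector gave 1 with median centring, a pseudocount of 1 or the replicate block, 4 with a pseudocount of 64, 7 with array weights and 1 to 3 over single arrays. Pdr1-Cyc8 in the deletion minus Pdr1-Sin3 gave 2 with median centring or the mean over probe sets, 3 with a pseudocount of 64, the intensity trend or the groups compared alone, 4 without the dimmest probe sets, 5 with array weights or without the 3 arrays, and 0 to 1 over single arrays. The interaction gave 2 with a pseudocount of 1, the groups compared alone or the replicate block, and 2 to 8 over single arrays.

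Signs turned only in differences that had not passed or were not tested. GIT1 in Pdr1-Cyc8 in the deletion minus deletion was -0.018 with a pseudocount of 64 and -0.099 with array weights. In deletion minus empty vector PHO80 was 0.044 with the intensities as deposited and PHO4 was -0.0065 with array weights. In Pdr1-Cyc8 in the deletion minus empty vector PHO5 was 0.00051, PHO8 0.0087 and SPL2 0.044 as deposited, and PHO90 was 0.0017 with array weights. Over single arrays left out, Pdr1-Cyc8 in the deletion minus deletion ran from -0.044 to 1.34 for PHO84, -0.41 to 0.52 for GIT1 and -0.33 to 0.19 for PHO81. Deletion minus empty vector ran from -0.34 to 0.71 for GIT1, -0.17 to 0.12 for PHO80, -0.010 to 0.098 for PHO4 and -1.13 to 0.28 for SPL2. Pdr1-Cyc8 in the deletion minus empty vector ran from -1.002 to 0.29 for PHO84, -0.34 to 0.19 for PHO90, -0.18 to 0.76 for GIT1, -0.70 to 0.46 for PHO5 and -0.86 to 0.55 for SPL2. The causes of these changes were not tested beyond what each alternative leaves out.

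The replicate numbers share only a number: the deviations of same-numbered arrays from their group means correlated at -0.35 to 0.10, and 1 of 21 correlations was over 0.1. The replicate block ended the VTC3 call for Pdr1-Sin3 minus empty vector (adjusted p = 0.0541 in limma) and the VTC2 and VTC3 calls of the interaction (adjusted p = 0.0528 and 0.0604 in limma). Dim genes depend on the pseudocount: SPL2 in Pdr1-Cyc8 minus Pdr1-Sin3 was -4.31 with 1 and -2.83 with 64, and PHO2 in Pdr1-Cyc8 in the deletion minus empty vector was 3.33 with 1 and 0.93 with 64.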
